A study of Homo sapiens with 4 samples.

Results

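KLF4, MYC, LIN28A, ESRRB, TFCP2L1, PRDM14, ZFP42, DPPA4, DNMT3B and TERT are genes of pluripotency and reprogramming, and their loci were examined for binding of SOX2 and of its isolated DNA-binding domain in human fibroblasts. A locus was the gene body with 50 kb on either side in hg19, and its members were the listed intervals that overlapped it by at least 1 bp. The genes were chosen by name, 10 of 20162 protein-coding genes of the annotation, and 11 of the 58827 intervals listed for either protein fell at their loci. Genes without an interval are part of the result and are described with the rest.

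The cells were BJ fibroblasts, an established line of human foreskin fibroblasts. They expressed V5-tagged full-length SOX2 or the V5-tagged DNA-binding domain (SOX2-DBD) ectopically for 48 h. Binding was mapped by CUT&RUN, in which an antibody, here against V5, tethers a nuclease that releases the bound DNA for sequencing. The 4 samples formed 2 groups of 2, and no sample without an introduced protein was among them. Peak lists filed with replicate 1 of each group were analysed, 57907 intervals for SOX2 and 15220 for SOX2-DBD, beside a down-sampled SOX2 list of 38291. Whether the lists pool replicates is not stated. Library depth is unknown. With 1 list per protein there is no replicate check of any value, and no difference between the proteins was tested. The lists as deposited are not independent of each other: all 14300 intervals in both lists have equal positions, total signal, maximum signal and region of maximum there, and 0 of the other intervals overlap the other list. How the authors joined the lists, and which library the signal of a shared interval comes from, is not given in the sources used here. Peak lists hold no expression, so the labelled cell type was not checked against marker genes.

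SOX2 is an HMG-box transcription factor that binds short ACAAAG-like sequences and can engage its sites on nucleosomes. With OCT4 (POU5F1), KLF4 and MYC it is one of the factors used to turn fibroblasts into induced pluripotent cells. In pluripotent cells it works with OCT4 at enhancers of many genes of the pluripotency network. Most of the genes examined here are known as silent in fibroblasts, with MYC and KLF4 as the usual exceptions.

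Of the 10 loci, 5 held an interval. KLF4, LIN28A, TFCP2L1, PRDM14 and DNMT3B held 3, 2, 1, 1 and 4 intervals, and MYC, ESRRB, ZFP42, DPPA4 and TERT held none. Among all protein-coding loci drawn in the same way, 70.1% held an interval. All 11 intervals were in the SOX2 list, whose intervals reached 69.5% of protein-coding loci. Intervals listed for SOX2 and not for SOX2-DBD (SOX2-only) numbered 9 and lay at 5 of the loci, against 65.1% of protein-coding loci. Intervals in both lists (shared) numbered 2, at KLF4 and LIN28A, and 37.6% of protein-coding loci held such an interval. No locus held a SOX2-DBD-only interval, which occurred at 4.72% of protein-coding loci. Taking 3 counts as the limit, 0 of 11 allows a share of up to 27.3%, and the upper end of the exact 95% binomial confidence interval is 28.5%, both for counting error alone. The shared portion was 18.2% (exact 95% binomial confidence interval 2.28 to 51.8), and over all listed intervals it was 24.3%, within that interval.

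**Figure D1:**
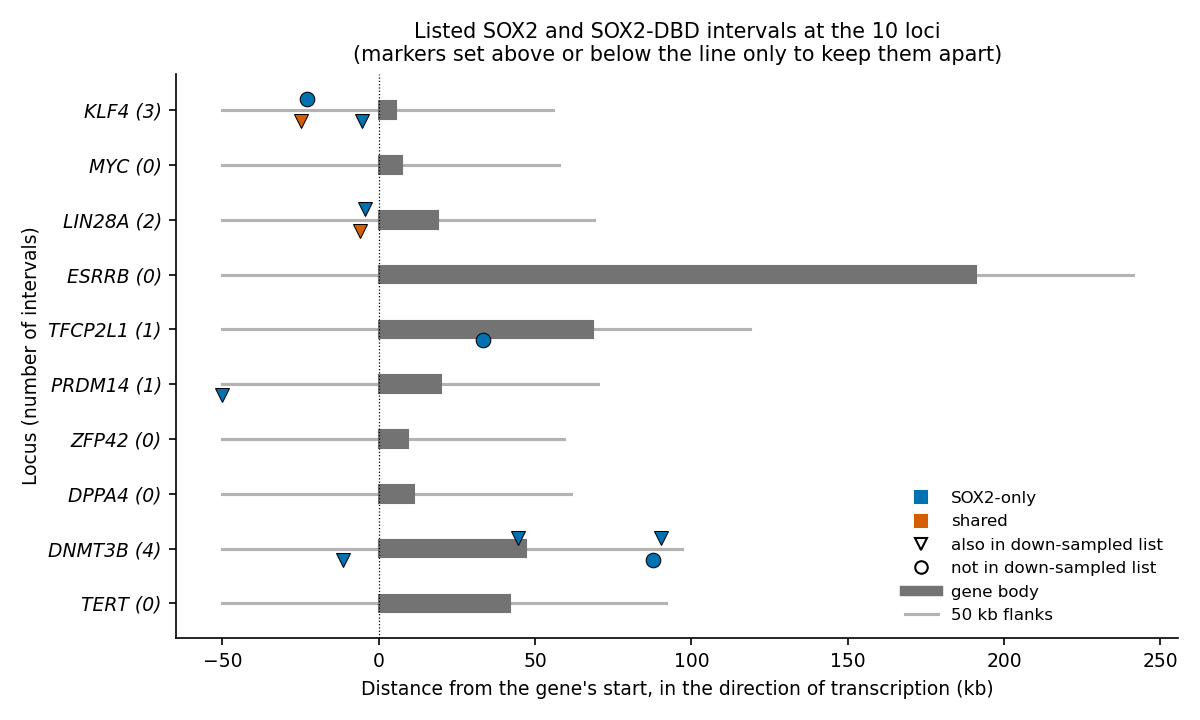
Map of the 10 loci, each drawn from the start of the gene in the direction of transcription (kb), with the gene body as a dark bar and the 50 kb flanks as a line. Markers stand for interval centres, coloured by class and shaped by presence in the down-sampled list. Of the 11 intervals 2 lie in a gene body of the group, at TFCP2L1 and DNMT3B, and 5 loci are empty.

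Sequences are shown for both shared intervals and for SOX2-only intervals to set beside them, the close neighbour at KLF4 and the intervals in and upstream of DNMT3B. They are 200-bp windows at the middle of each region of maximum signal, read from GRCh37 on the plus strand. The first 3 lie upstream of KLF4 and LIN28A and include both shared intervals, at chr9:110277663-110277862 (KLF4, shared), chr9:110275646-110275845 (KLF4, SOX2-only) and chr1:26731232-26731431 (LIN28A, shared). The others are the window upstream of DNMT3B at chr20:31338750-31338949 and the intronic DNMT3B window at chr20:31394556-31394755, both SOX2-only. Capitals mark exact matches on either strand to the SOX core (ACAAAG or ACAATG), to AACAATAG or AACAATGG, to the POU octamer (ATGCAAAT) and to the AP-1 site (TGACTCA). The motifs overlap where AACAATGG contains ACAATG. Distances are from the gene's start, negative upstream.
KLF4 shared, centre at -24.9 kb: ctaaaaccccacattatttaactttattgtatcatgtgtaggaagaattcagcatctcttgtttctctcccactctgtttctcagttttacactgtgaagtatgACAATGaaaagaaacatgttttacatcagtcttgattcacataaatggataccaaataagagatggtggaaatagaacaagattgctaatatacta
KLF4 SOX2-only, centre at -23 kb: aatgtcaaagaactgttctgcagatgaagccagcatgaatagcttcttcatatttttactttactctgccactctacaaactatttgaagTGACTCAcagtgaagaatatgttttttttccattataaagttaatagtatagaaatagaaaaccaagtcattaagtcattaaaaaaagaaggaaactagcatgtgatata
LIN28A shared, centre at -5.97 kb: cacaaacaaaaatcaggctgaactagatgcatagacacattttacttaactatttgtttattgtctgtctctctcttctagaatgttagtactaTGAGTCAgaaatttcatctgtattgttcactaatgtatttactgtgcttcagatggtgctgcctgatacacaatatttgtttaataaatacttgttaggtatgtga
DNMT3B SOX2-only, centre at -11.4 kb: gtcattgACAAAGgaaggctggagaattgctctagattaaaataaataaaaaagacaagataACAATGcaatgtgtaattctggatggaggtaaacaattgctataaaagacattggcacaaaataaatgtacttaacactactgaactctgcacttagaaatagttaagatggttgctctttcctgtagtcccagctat
DNMT3B SOX2-only, intron: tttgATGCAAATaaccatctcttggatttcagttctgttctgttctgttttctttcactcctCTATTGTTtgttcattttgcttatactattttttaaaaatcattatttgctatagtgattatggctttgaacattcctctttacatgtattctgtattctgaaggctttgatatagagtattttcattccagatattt

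These windows differ in what they hold, and each has at least 1 marked match. Windows without any marked match were not printed. They belong to the KLF4 interval nearest to the start, the SOX2-only LIN28A interval and the DNMT3B interval centred at 90.2 kb. The shared KLF4 window has 1 SOX core match, while its SOX2-only neighbour has none and has an AP-1 match instead. The shared LIN28A window has an AP-1 match and no SOX core match. The upstream DNMT3B window has 2 SOX core matches. The intronic DNMT3B window has no SOX core match by these letters, but it holds an octamer and a minus-strand match to AACAATAG. At these regions of maximum signal AACAATAG or AACAATGG was in 3 of the 11 intervals (27.3%), the DNMT3B interval over MAPRE1 among them, and in 3.82% of all intervals. The octamer was in 2 of 11 (18.2%) and in 2.76% of all. The other octamer was in the window of the PRDM14 interval, which lies in NCOA2 and wholly beyond the 50 kb limit. AP-1 was in 2 of 11 (18.2%) and in 18.1% of shared and 7.16% of SOX2-only intervals. The SOX core was in 5 of 11 (45.5%) and in 48.9% of all. AACAAAG or AACAATG was in 2 of 11 (18.2%) and in 19.8% of all. In windows at the interval centres, AACAATAG or AACAATGG was in 2 of 11 and the octamer in 1 of 11. With 11 windows these shares have wide errors, and none was tested. A match is a description of the letters and not of binding.

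KLF4, a zinc-finger factor of the reprogramming set, is a gene of 5.63 kb at chr9:110247133-110252763 on the minus strand. It had intervals on its upstream side alone. A SOX2-only interval at chr9:110257893-110258415 began 5.13 kb from the start, with a total signal of 1706 and a maximum of 6. Total and maximum signal are the values the authors deposited and have no stated normalization, so they are ranked within a class here. The other SOX2-only interval, at chr9:110275510-110275955, had a total signal of 1844, and the shared interval at chr9:110277455-110277825 had 2374. These values lie above those of 26.9% and 32.9% of SOX2-only intervals and 40% of shared intervals. The pair farther upstream lies 1.5 kb apart, outside any annotated gene, with KLF4 as the nearest protein-coding start. The 3 intervals amount to 28.4 per Mb, a higher density than at 71.8% of protein-coding loci.

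LIN28A, which encodes an RNA-binding protein that blocks maturation of let-7 microRNAs, is a gene of 18.9 kb at chr1:26737308-26756219 on the plus strand. Both of its intervals lie just upstream and outside annotated genes. The SOX2-only interval at chr1:26732693-26733260 ended 4.05 kb before the start and had a total signal of 2846, above that of 66.2% of its class. The shared interval at chr1:26731180-26731503 ended 5.80 kb before the start and had a total signal of 2188, above 34.4% of shared intervals, with a maximum of 15, above 81.2% of them. They lie 1.19 kb apart. At LIN28A the nearest SOX2-DBD interval was closer to the start than at any other of the 10 genes, and 4.94% of protein-coding starts had a nearer one.

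TFCP2L1, a transcription factor of the CP2 family associated with naive pluripotency, is a gene of 68.6 kb at chr2:121974163-122042778 on the minus strand. It held 1 interval, in intron 2 of its canonical transcript of 15 exons. With a total signal of 4463, above that of 89.8% of SOX2-only intervals, and a maximum of 17, above 96.5%, it had the highest signal of the 11 by either value. It is not in the down-sampled list, and no other interval lay within 117 kb of it.

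DNMT3B, a de novo DNA methyltransferase abundant in pluripotent cells, is a gene of 47.0 kb at chr20:31350191-31397165 on the plus strand. Its 4 intervals were all SOX2-only. The interval at chr20:31338650-31338953 ended 11.2 kb before the start and had the lowest total signal of the 11, 1202, above 1.09% of its class. Inside the gene, the interval at chr20:31394363-31394841 lies in intron 22 of a canonical transcript of 23 exons and had a total signal of 2749. The remaining pair lies beyond the gene's end. The interval at chr20:31437865-31438071 overlaps exon 7, the last exon, of MAPRE1 and a long non-coding RNA gene without a name, and had a total signal of 1408. Its neighbour at chr20:31440011-31440836 overlaps the same non-coding gene, with EFCAB8 as the nearest protein-coding start, and had a total signal of 3878. At 27.2 per Mb DNMT3B had a higher density than 70.2% of protein-coding loci, but the pair in its downstream flank overlaps other annotated genes. No interval at this locus had DNMT3B as its nearest protein-coding start. That start belonged to an unnamed gene for the upstream interval (7.28 kb away) and to MAPRE1 for the intronic interval (12.9 kb away). For the downstream pair it was EFCAB8. A further SOX2-only interval lay just beyond the upstream limit, 54.2 kb from the gene in COMMD7.

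PRDM14, a PR-domain regulator of embryonic stem and germ cells at chr8:70963886-70983928, held 1 SOX2-only interval at the very edge of its flank. The interval lies at chr8:71033786-71034199 in intron 21 of NCOA2, 49.9 kb from the PRDM14 start, and 143 of its 414 bases fall inside the 50 kb limit. Its total signal was 2154, above that of 45.6% of its class. The next interval beyond the limit began 55.4 kb from the gene, also in NCOA2. Whether PRDM14 counts as a locus with an interval thus depends on the limit: it drops out when the interval centre must be inside or when the canonical transcript replaces the gene record, which leaves 4 loci.

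The 11 intervals spread over much of the range of their classes. Widths ran from 207 to 826 bp with a median of 446 bp, and total signals from 1202 to 4463 with a median of 2188. The median total signal was 2278 in all SOX2-only and 2742 in all shared intervals, and 4 of the 11 stood above the median of their class. The down-sampled SOX2 list held 8 of the 11 (72.7%), where it held 64.3% of SOX2-only and of shared intervals alike. Those missing from it were the TFCP2L1 interval, the SOX2-only neighbour of the shared KLF4 interval and the DNMT3B interval over MAPRE1.

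**Figure D2:**
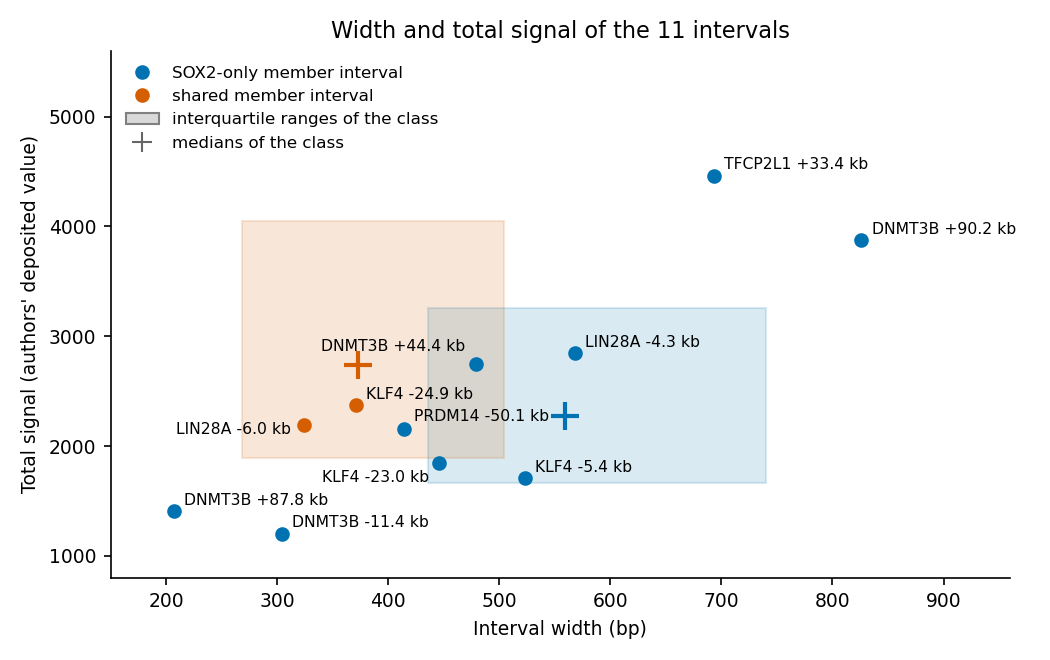
Width (bp) against total signal (the authors' deposited value, no stated normalization) of the 11 intervals, coloured by class and labelled by gene and distance of the centre from its start. Shaded boxes are the interquartile ranges and crosses the medians of all SOX2-only and all shared intervals. The TFCP2L1 interval (4463) and the DNMT3B interval at 90.2 kb (3878) stand above the SOX2-only box, and both shared intervals lie inside the shared box.

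The empty loci fell into separate situations. MYC, a basic helix-loop-helix factor of the reprogramming set at chr8:128747680-128755197, had its nearest interval 67.3 kb beyond the gene's end, a shared interval at chr8:128822466-128822795 inside PVT1 with a total signal of 3003. On the upstream side the nearest was also shared, 219 kb away. TERT, the catalytic subunit of telomerase at chr5:1253262-1295183, had its nearest interval 59.3 kb upstream in LINC01511, and it was SOX2-only. Both genes gained 1 interval when the flank was widened to 100 kb, and the other 3 empty loci gained none.

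ESRRB, an orphan nuclear receptor of the naive pluripotency network, is the longest of the 10, at chr14:76777055-76968180. Its locus of 291 kb held no interval, and the nearest lay 117 kb away on both sides, upstream in GPATCH2L and downstream in an unnamed gene. At the mean density of the autosomes, 20.3 intervals per Mb, a locus of that length would hold 5.90. Of 1605 protein-coding loci at least as long, 193 (12.0%) were empty too. The nearest SOX2-DBD interval lay 562 kb from the ESRRB start, the longest such distance of the 10.

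ZFP42, the zinc-finger gene known as REX1, and DPPA4, a chromatin-associated SAP-domain protein, lay farthest from any interval. The ZFP42 start at chr4:188916925 was 236 kb from the nearest interval, upstream, and on the downstream side the nearest was 955 kb from the gene. For DPPA4, at chr3:109044991-109056393, the start was 258 kb from the nearest interval, which lay in MORC1. Of protein-coding starts, 90.7% had a nearer interval than ZFP42 and 91.7% had a nearer one than DPPA4. DPPA2, the tandem neighbour of DPPA4, lies in the same stretch without intervals, with the nearest 237 kb from its start. Its empty locus is therefore not a separate observation.

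**Figure D3:**
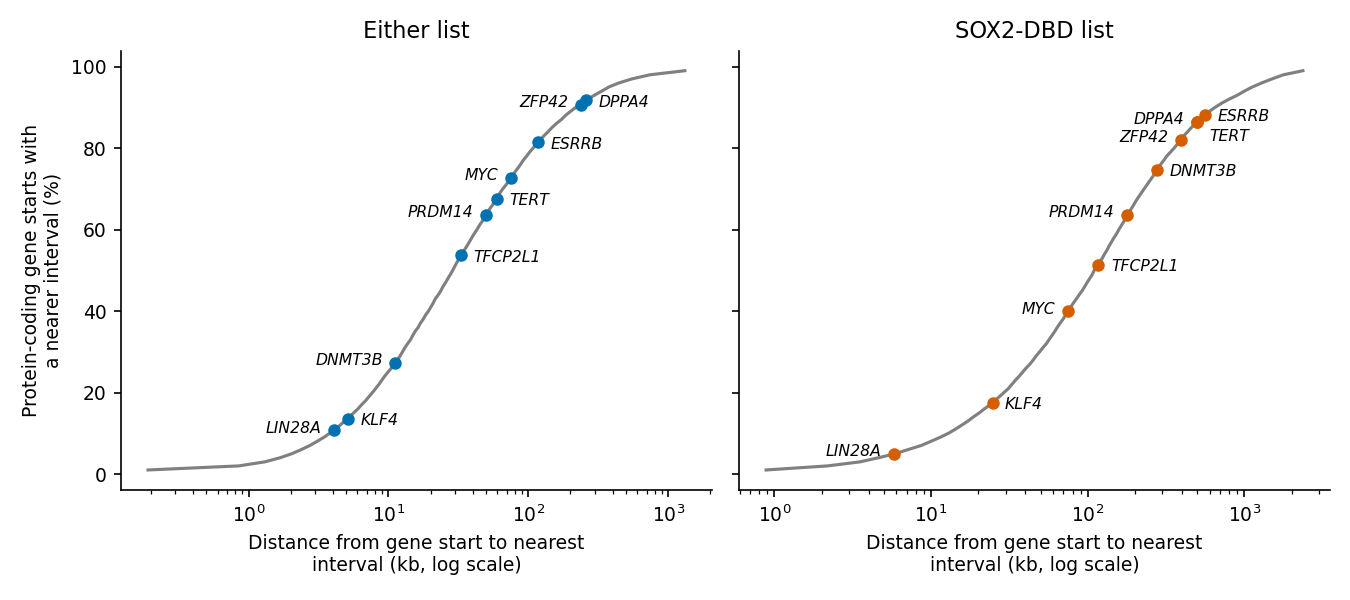
Distance from each gene's start to the nearest interval of either list (left) and of the SOX2-DBD list (right), in kb on a log scale, against the share of protein-coding gene starts with a nearer interval. The grey curve is that share over all protein-coding starts and points are the 10 genes. LIN28A and KLF4 stand lowest on both curves, and DPPA4, ZFP42 and ESRRB stand highest on the left.

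Within 1 kb of the start 0 of 10 genes had an interval, where 2.29% of protein-coding starts had one. With a share that low, 0 of 10 says nothing particular about these genes. Within 10 kb 2 genes had one, LIN28A and KLF4, beside 25.1% of protein-coding starts. Gene bodies with an interval numbered 2 of 10, TFCP2L1 and DNMT3B, beside 38.6% of protein-coding gene bodies. The median distance from the start to the nearest interval was 54.6 kb over the 10 genes and 28.8 kb over protein-coding genes. For the SOX2-DBD list these medians were 228 and 110 kb.

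In the wider neighbourhood, within 500 kb on either side of the start, every one of the 10 genes had intervals. Counts were 24 for KLF4, 23 for MYC, 17 for LIN28A, 10 for ESRRB, 24 for TFCP2L1, 29 for PRDM14, 8 for ZFP42, 3 for DPPA4, 13 for DNMT3B and 6 for TERT. The median of the group was 15, and that of protein-coding starts was 16 (interquartile range 8 to 29). Only DPPA4 and TERT lay below that range. The empty MYC locus sits among nearly as many intervals as the KLF4 locus does, and 7 of the 23 around MYC were shared, the most of the 10 genes. Around ESRRB 0 of 10 were shared. SOX2-DBD-only intervals occurred within this distance of KLF4 and MYC, 1 each. Summed over the 10 neighbourhoods 29 of 157 intervals were shared (18.5%) and 2 were SOX2-DBD-only, beside 24.3% and 1.56% of all listed intervals. The counts around single genes are small and were not tested against these shares.

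**Figure D4:**
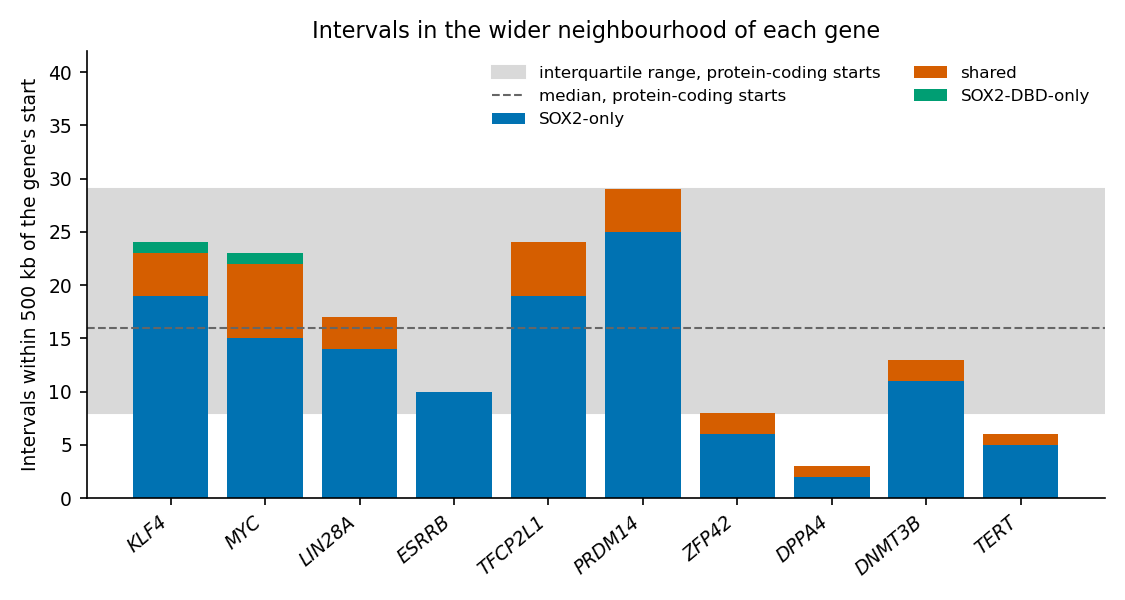
Number of intervals within 500 kb on either side of each gene's start, stacked by class. The dashed line and grey band are the median (16) and interquartile range (8 to 29) over all protein-coding gene starts. PRDM14 has the most (29) and DPPA4 the fewest (3).

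Over the summed length of 1.42 Mb the 10 loci held 7.74 intervals per Mb (exact 95% Poisson interval 3.86 to 13.8, counting error only), below the autosomal mean of 20.3 per Mb, at which 28.8 intervals would be found. Intervals lie in groups along the genome, as the close pairs at KLF4, LIN28A and DNMT3B show, so the counting interval is too narrow. The mean count per locus was 1.10 over the group and 3.70 over protein-coding loci, with medians of 0.5 and 2. Over protein-coding loci, base composition moved with the density of intervals. The median GC content was 46.2% over the 10 loci and 44.3% over protein-coding loci, and across 20145 protein-coding loci, many of which share intervals, density and GC content had a Spearman correlation of -0.50. When protein-coding loci were divided into 5 ranges of GC content with equal numbers of loci, from lowest to highest 78.6%, 85.7%, 80.6%, 68.4% and 37.4% of protein-coding loci held an interval, with mean counts of 7.61, 5.52, 3.23, 1.58 and 0.56. None of the 10 lay in the lowest range. ZFP42, at 42.5%, was the single one between 39.7 and 42.6%, and TERT, at 56.4%, was in the highest range, and both were empty. Between 42.6 and 46.2%, KLF4 and PRDM14 held intervals and MYC and DPPA4 did not. Between 46.2 and 50.5%, LIN28A, TFCP2L1 and DNMT3B held intervals and ESRRB did not. The share also rose with locus length, from 50.3% in the shortest of 5 such ranges to 89.3% in the longest. The median locus was 119 kb over the 10 genes and 127 kb over protein-coding genes. KLF4 lay in the shortest range, MYC, ZFP42 and DPPA4 in the next (59.3%) and ESRRB in the longest. The parts of base composition and of locus length in the counts of the 10 loci were not tested.

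**Figure D5:**
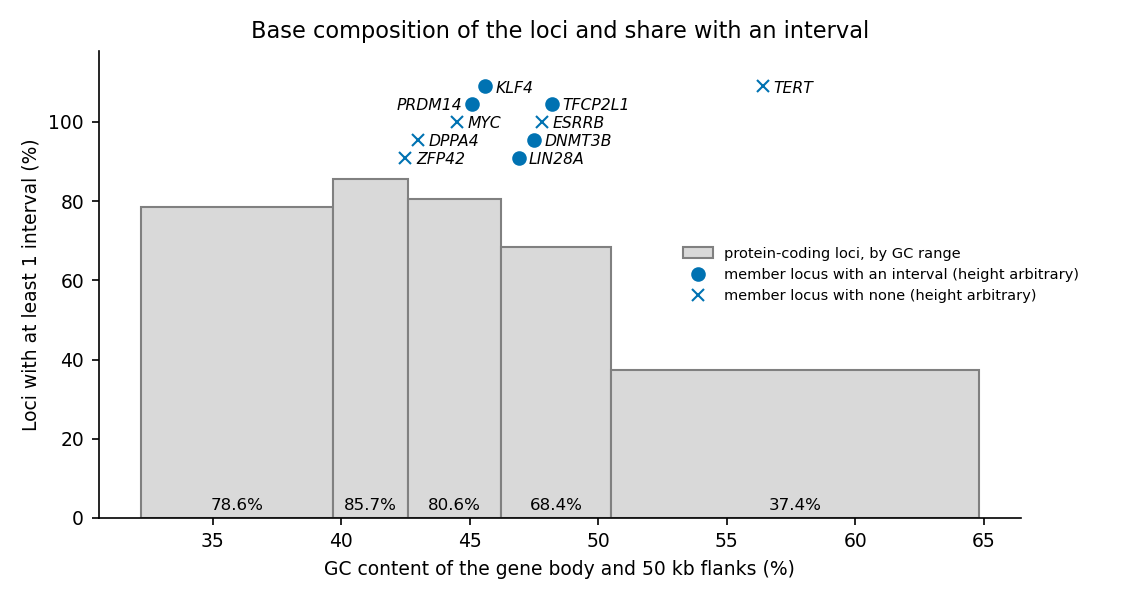
Share of protein-coding loci with at least 1 interval in each of 5 ranges of GC content holding equal numbers of loci (bars, % of loci, each as wide as its range), with the 10 genes placed by the GC content of their own locus. Dots are loci with an interval and crosses loci with none, at heights without meaning. The share falls to 37.4% in the highest range, where TERT lies, and 8 of the 10 genes lie between 42.6 and 50.5%.

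The intervals themselves were poor in GC, with a median of 33.0% in the 200-bp windows at their centres, close to the 33.5% of all intervals. The SOX core was present in 6 of these 11 windows (54.5%, Wilson 95% confidence interval 28.0 to 78.7), beside 47.2% of all intervals and 27.6% of windows 10 kb downstream of them. Windows with a match included 1 of 3 at KLF4, 1 of 2 at LIN28A and 2 of 4 at DNMT3B. At the region of maximum signal 5 of 11 had a match, beside 48.9% of all intervals. The intervals with a match differ between these placements. The shared KLF4 interval has a match at the region of maximum signal, 8 bp from its middle, and none in its central window. The KLF4 interval nearest to the start and the SOX2-only LIN28A interval have a match in the central window alone, with the nearest match 201 and 137 bp from the middle of the region of maximum signal. AP-1 matches were present in 3 of 11 central windows (27.3%), at KLF4, LIN28A and PRDM14, beside 6.58% of SOX2-only and 16.9% of shared windows. The octamer was present in 1 of 11 (9.09%), in the DNMT3B intron, beside 2.89% of all intervals. With 11 windows these shares have wide errors, and none was tested against the rest.

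Among 32 other genes of pluripotency, 14 loci (43.8%) held 50 intervals, of which 29 were SOX2-only, 19 shared and 2 SOX2-DBD-only. NR5A2 had 10, PODXL 8, and KLF5 and ZNF281 7 each. NANOG, GDF3, DPPA3, LEFTY1, LEFTY2, FGF4, UTF1, TBX3, OTX2 and ZIC2 were among the 18 without any. Loci of neighbouring genes can overlap, so these are not all separate observations. POU5F1 and NR0B1 held 1 each, both SOX2-DBD-only, a class at 2 of these 32 loci and at 4.72% of protein-coding loci. SOX2 itself held 1 shared interval, 0.438 kb from its start, which cannot be told apart from signal of the introduced SOX2 sequence. A list of 20 fibroblast and mesenchymal transcription factors had an interval at 18 loci (90.0%) and 30.4 intervals per Mb. For 22 neural progenitor genes it was 15 loci (68.2%) and 20.9 per Mb, beside 12.6 per Mb for the other pluripotency genes. A few long loci held many of these intervals, RUNX1 (38) and RUNX2 (24) of the 137 in the fibroblast list. In the neural list CDH2 (23) and GLI3 (15) did so among 78. The median count per locus was 3 in the fibroblast list, 2 in the neural list and 0 for the other pluripotency genes. The median GC content was 41.9%, 43.9% and 45.4% in these lists, in that order, and the median locus 156, 108 and 111 kb long. The differences between lists were not tested.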

How the data were processed

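Intervals of V5 CUT&RUN in BJ fibroblasts were taken from the peak lists filed with replicate 1 of each group. Total and maximum signal are the authors' deposited values, with no stated normalization, and the seventh column of the SOX2 list is a deposited score without a stated meaning. The submitters' processing notes name hg19, Bowtie2 2.3.4.1, SAMtools, bedtools 2.27.1, SEACR 1.3 and deepTools 3.5.0, with no threshold or pooling given. Exact duplicate rows (1654 in each full list) were counted once. An interval with equal positions in both lists was shared. Genes came from GENCODE release 44 mapped to GRCh37, with the gene record's 5' end as the start, and 0 intervals lay beyond a chromosome end. Every count is a description beside the same count over protein-coding loci. The rule named all 10 genes, all their intervals and other genes at those intervals. The 10 genes, the lists and the motifs were chosen with earlier results of these data known. The list genes named beside counts were picked after their values were seen. Central windows were 200 bp. Sequences of 5 of the 11 intervals are printed, and the others are not reported here. The code was tested on simulated data, and 300 of 300 loci gave the brute-force count. Software comprised samtools 1.23.1, matplotlib 3.10.9 and pyfaidx 0.9.0.4, run from python 3.11.15, with scipy 1.17.1 for intervals, and pandas 2.3.3 and numpy 2.4.6 for tables.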

Additional observations from a re-analysis of the deposited data

How the results depend on the processing

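No paired analysis was possible because peak lists are filed with replicate 1 alone, and for the same reason no replicate could be left out. Counts followed the flank by construction. The gene bodies alone held 2 intervals at 2 loci, 2 SOX2-only and 0 shared, with 38.6% of protein-coding genes holding one. A flank of 10 kb gave 5 intervals, 4 SOX2-only and 1 shared. They lay at 4 of the 10 loci, beside 48.2% of protein-coding loci. A flank of 100 kb gave 21 intervals, 18 of them SOX2-only. They lay at 7 of the 10 loci, beside 81.5% of protein-coding loci. The upper 50% of each list by total signal left 4 intervals at 3 loci, 4 SOX2-only and 0 shared, 2.81 per Mb and 55% of protein-coding loci. With the down-sampled list 64.7% of protein-coding loci held an interval, and 4 member loci did, TFCP2L1 having none. The SOX core share was 18.2% in 100-bp windows and 27.3% for AACAAAG or AACAATG, both shorter or stricter searches. AACAAAG or AACAATG was in 19.1% of all intervals, and 100-bp windows have no matching share over all intervals. Of 57 alternative values 36 stayed within 1.5 times of a count or within the counting interval of a share or density. The numbers of loci at flanks of 10 and 100 kb were among those 36. SOX2-DBD-only intervals numbered 0 in every alternative run on that class. The unknown depth and the single list per protein limit every comparison of the proteins.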

Other observations

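Motifs of other factors were counted at the same 11 intervals. The KLF-type CACCC box was in 0 of 11 central windows, beside 11.6% of all intervals and 25.5% of windows 10 kb downstream. At the region of maximum signal it was in 1 of 11 (9.09%), beside 11% of all intervals. Within the whole interval it was in 3 of 11, a count without a matching share over all intervals. The E-box CACGTG, bound by MYC, and the ESRRB motif AAGGTCA were in 0 of 11 windows as well, beside 0.758% and 2.23% of all intervals. With shares that low in all intervals, 0 of 11 says nothing particular about these intervals, and it allows a share of up to 27.3%. A match to AACAATAG or AACAATGG was in 2 of 11 central windows, both at DNMT3B, beside 3.62% of all intervals.

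The seventh column of the SOX2 list is present for shared intervals alone. It was 1 for the LIN28A interval and 0 for the KLF4 interval, and over all shared intervals 26.5% had 1 and 65.5% had 0. The LIN28A interval has no exact match to the SOX core anywhere in its 324 bp, and the KLF4 interval has 1.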
